A study of Mus musculus with 11 samples.

Results

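Car5b, Nwd2 and Tmem132b are genes outside the transcription factors whose reads were far more abundant in mouse retinas lacking both Six3 and Six6 than in any other retinas of the series. They were picked from the count table by name, for a large gain in the double mutant and a partial gain in the single mutants, and they are 3 of 13498 genes in the table. Since those values chose the genes, their levels and fold changes are given as a description and were not tested. All 3 passed the filter on low counts, as did 13292 genes in all. Car5b and Nwd2 passed through the mutant libraries alone, since the filter needs more than 1 library at its cutoff. The WT libraries held 18, 1 and 5 reads of Car5b and 2, 2 and 7 reads of Nwd2.

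RNA was sequenced from pairs of retinas of NMRI mouse embryos at E13.5, with 11 libraries in all. Every embryo, WT included, carried floxed Six3 alleles and was exposed to tamoxifen on E10.5 and again on E11.5. The DKO group (3 libraries) lacked Six6 through germline null alleles and also carried CAGGCre-ERTM, a broadly expressed Cre recombinase that tamoxifen activates. The Six3KO group (3 libraries) carried the same Cre with intact Six6. The Six6KO group (2 libraries, after the submitters removed 1 for high duplication) was Six6 null without Cre. The WT group (3 libraries) had the floxed Six3 alleles and neither Cre nor the Six6 null alleles. Cre is present in DKO and Six3KO alone, so in any contrast with WT or Six6KO the loss of Six3 and the presence of Cre cannot be told apart. Reads in genes numbered 7807744 to 16403191 per library.

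Six3 and Six6 are sister homeobox genes active in the early eye and in retinal progenitors, and their proteins are known mainly for repressing other genes. Car5b encodes a carbonic anhydrase of the mitochondrial matrix, which interconverts carbon dioxide and bicarbonate and thereby supplies bicarbonate to carboxylases. Nwd2 encodes a large protein named for its NACHT nucleotide-binding domain and its WD repeats. Tmem132b encodes a single-pass membrane protein of the TMEM132 family, whose members are proposed to act in cell adhesion in the nervous system.

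The genes lie at separate loci (GENCODE vM21, GRCm38). Car5b is on chromosome X from 163976822 to 164027997 on the minus strand, with 6354 bases of merged exons. Nwd2 (chromosome 5, 63649102 to 63810546, plus strand) has 10428 bases of merged exons. Tmem132b (chromosome 5, 125531774 to 125792583, plus strand) has 8238 bases. No exon of Car5b or Tmem132b overlaps another annotated gene. Exons of Nwd2 share 1219 bases with Gm9954 on the opposite strand. Whether counting used strand is not stated in the labels, so reads over those bases could belong to either gene.

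The sequences before the start sites are shown because the genes were high in the same libraries and the deleted genes encode DNA-binding proteins. Each is the 250 bases before the start of the RefSeq gene (GRCm38.p6), on the strand of the gene, and capitals mark matches on either strand to the homeodomain core TAAT or to GGCGTGG. The last motif was picked after the sequences had been read. The RefSeq start of Tmem132b lies 644 bases inside the gene as GENCODE places it, so its window is not upstream of the GENCODE start, while for Car5b and Nwd2 the starts differ by 13 bases or fewer.
Car5b, chrX:164028011-164028260, minus strand: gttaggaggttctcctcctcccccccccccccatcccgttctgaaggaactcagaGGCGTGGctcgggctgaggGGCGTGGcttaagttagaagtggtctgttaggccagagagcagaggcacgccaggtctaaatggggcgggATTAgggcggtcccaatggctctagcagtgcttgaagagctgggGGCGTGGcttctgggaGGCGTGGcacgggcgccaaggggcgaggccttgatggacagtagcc
Nwd2, chr5:63648853-63649102, plus strand: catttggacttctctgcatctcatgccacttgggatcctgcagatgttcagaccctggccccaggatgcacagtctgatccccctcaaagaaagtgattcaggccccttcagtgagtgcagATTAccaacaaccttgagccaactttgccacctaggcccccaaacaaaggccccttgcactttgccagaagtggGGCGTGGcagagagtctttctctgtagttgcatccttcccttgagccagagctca
Tmem132b, chr5:125532168-125532417, plus strand: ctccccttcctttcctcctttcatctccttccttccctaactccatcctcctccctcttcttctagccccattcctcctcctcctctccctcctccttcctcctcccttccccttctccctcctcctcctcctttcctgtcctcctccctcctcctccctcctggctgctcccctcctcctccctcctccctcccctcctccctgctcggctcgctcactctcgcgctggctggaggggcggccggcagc

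TGATAC, a core bound by proteins of the Six3 and Six6 family, was in none of them on either strand. It occurred in 4.64% of all 32851 promoter windows of the same length and in 2.58% of those of genes in the count table. TAAT occurred 1 time in Car5b, 1 time in Nwd2 and 0 times in Tmem132b. It was in 54.9% of all windows and in 39.3% of those of genes in the count table. GGCGTGG occurred 4 times in Car5b, 1 time in Nwd2 and 0 times in Tmem132b. That motif was in 7.54% of all windows and in 13.2% of those of genes in the count table, and 14 windows (0.0426%) held it 4 or more times. It was picked after the sequences had been read, and 4 is the Car5b count, so nothing is read from that share. The GC box GGGCGG occurred 2 times in Car5b, 0 times in Nwd2 and 1 time in Tmem132b, and in 32.7% of all windows and 58.0% of those of genes in the count table. The Tmem132b window was 86.8% C and T, while the Car5b and Nwd2 windows were 44.4% and 55.2%. The Car5b and Tmem132b windows were 63.6% and 64.8% G and C, with 12 and 6 CpG sites, whereas the Nwd2 window was 53.6% G and C with 1 CpG. These are letter matches in short windows and say nothing of binding at sites outside them.

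Both deleted genes were lower in the libraries labelled as lacking them. CPM here is the read count scaled to library size with TMM factors. Six3 lay between 30.3 and 98.2 CPM in the 6 DKO and Six3KO libraries and at 142 CPM or above in the others. Six6 lay between 52.8 and 131 CPM in the 5 DKO and Six6KO libraries and at 168 CPM or above in the others, so the null alleles still gave reads. In DKO against WT, edgeR called Six6 lower (log2 -2.01 ± 0.36, adjusted p = 0.0342) and did not call Six3 (-1.70 ± 0.43, adjusted p = 0.106), and the Six6 call was lost in 5 of 6 fits that left out 1 library (adjusted p 0.0741 to 0.189). Reads of Esr1, part of the Cre fusion, were at 50.2 CPM or above in every DKO and Six3KO library and at 0.625 CPM or below in the rest. The 10 progenitor markers summed to 3867 to 5419 CPM in DKO, 3458 to 6360 CPM in Six3KO, 4222 to 6710 CPM in Six6KO and 5779 to 8359 CPM in WT. Tissue bordering the retina was unevenly present. The 12 periocular mesenchyme markers, all detected in every group, summed to 49.9 to 116 CPM in DKO, 387 to 3765 CPM in Six3KO, 1467 to 2321 CPM in Six6KO and 357 to 2066 CPM in WT. The 12 lens markers summed to 7.85 to 143 CPM in DKO, up to 17870 CPM in Six3KO and 8420 CPM in Six6KO, and 27.5 to 997 CPM in WT. In a bulk library, more cells of a type and more RNA per cell cannot be told apart.

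Car5b was readily counted in DKO and nearly absent from WT. The 3 DKO libraries rh010, rh011 and rh021 held 555, 503 and 415 reads, or 45.5, 41.7 and 32.9 CPM. The Six3KO libraries rh006, rh012 and rh026 held 1.46, 1.54 and 2.22 CPM, and the Six6KO libraries rh007 and rh020 held 1.97 and 3.53 CPM. The WT libraries rh016, rh023 and rh024 held 18, 1 and 5 reads, or 1.41, 0.116 and 0.637 CPM. Every DKO library thus lay far above every other library. The single mutant libraries all lay above the 1.41 CPM of the highest WT library, closely in rh006 and rh012 and at 3.53 CPM in rh020, and the ranges of Six6KO and Six3KO overlapped each other. The fitted log2 fold change against WT was 5.68 ± 0.55 (standard error) in DKO, 1.15 ± 0.55 in Six3KO and 1.83 ± 0.58 in Six6KO. On counting error alone, DKO over WT was a ratio of 48.7 with an exact 95% interval of 32.6 to 76.3, from 1473 against 24 reads.

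Because WT held so few Car5b reads, its baseline rested on 1 library. Without WT library rh016 the log2 fold changes were 6.73 in DKO, 2.196 in Six3KO and 2.87 in Six6KO. WT library rh023, the lowest for Car5b, was also the lowest of the 3 WT libraries for pigment epithelium markers (summed 52.3 CPM, against 1669 in rh016 and 785 in rh024), mesenchyme markers and endothelial markers. Six6KO library rh020, the highest outside DKO, held the most pigment epithelium signal of all libraries (1844 CPM over 9 of 10 markers). The part of these tissues in the low Car5b levels outside DKO was not tested. In DKO the same 9 markers summed to 101 to 343 CPM. Macrophage markers (7 of 8 in the table) summed to 121, 111.5 and 46.4 CPM in DKO libraries rh010, rh011 and rh021, against 24.75 to 50.6 CPM in WT, and their part in the gains was not tested. Car5b is X-linked, and embryos of both sexes were present. Xist, the RNA of the inactive X chromosome, was at 4481 CPM or above in DKO libraries rh010 and rh021, Six3KO library rh006 and WT libraries rh016 and rh024, and at 12.7 CPM or below in the others. The DKO library low in Xist, rh011, held 41.7 CPM of Car5b, between the 45.5 and 32.9 CPM of the Xist-high DKO libraries. In WT the Xist-low library, rh023, held 0.116 CPM, below the 1.41 and 0.637 CPM of the Xist-high libraries. In Six3KO the Xist-high library, rh006, held 1.46 CPM, below the 1.54 and 2.22 CPM of the Xist-low libraries. Both Six6KO libraries were low in Xist, so Six6KO and WT were not balanced for sex. The part of sex in these levels was not tested.

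Nwd2 was the least abundant of the genes in DKO, with intermediate levels in Six3KO. DKO libraries held 153, 177 and 95 reads in rh010, rh011 and rh021, or 12.5, 14.7 and 7.53 CPM. The Six3KO libraries held 2.01, 2.78 and 1.31 CPM in rh006, rh012 and rh026. In Six6KO, rh007 and rh020 held 7 and 5 reads, or 0.812 and 0.535 CPM, and the WT libraries rh016, rh023 and rh024 held 2, 2 and 7 reads, or 0.156, 0.231 and 0.892 CPM. DKO lay above Six3KO with no overlap, and Six3KO above WT with no overlap, while both Six6KO libraries lay within the WT range. The log2 fold change against WT was 4.82 ± 0.61 in DKO, 2.32 ± 0.60 in Six3KO and 0.73 ± 0.72 in Six6KO. The exact 95% counting interval for DKO over WT was 17.0 to 61.9 around a ratio of 30.7 (425 against 11 reads). For Six3KO over WT it was 2.87 to 11.3 (75 against 11 reads), and for Six6KO over WT 0.718 to 4.45 (12 against 11 reads). These intervals leave out the spread between embryos and are not read as tests. Here the WT baseline rested on rh024, without which the values were 5.85 in DKO, 3.37 in Six3KO and 1.76 in Six6KO.

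Tmem132b was high in DKO and at WT-like or lower levels in both single mutants. The DKO libraries rh010, rh011 and rh021 held 2363, 2377 and 830 reads, or 194, 197 and 65.8 CPM. The Six3KO libraries rh006, rh012 and rh026 held 9.98, 8.25 and 11.9 CPM, and the Six6KO libraries rh007 and rh020 held 10.2 and 5.14 CPM. The WT libraries rh016, rh023 and rh024 held 6.02, 11.4 and 14.9 CPM. All Six3KO libraries and Six6KO library rh007 fell inside the WT range, and rh020 lay below it. The log2 fold change against WT was 3.83 ± 0.50 in DKO, -0.09 ± 0.47 in Six3KO and -0.48 ± 0.545 in Six6KO. The partial gain in single mutants by which the genes were picked was therefore not present for Tmem132b, and for Nwd2 it was present in Six3KO.

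**Figure D1:**
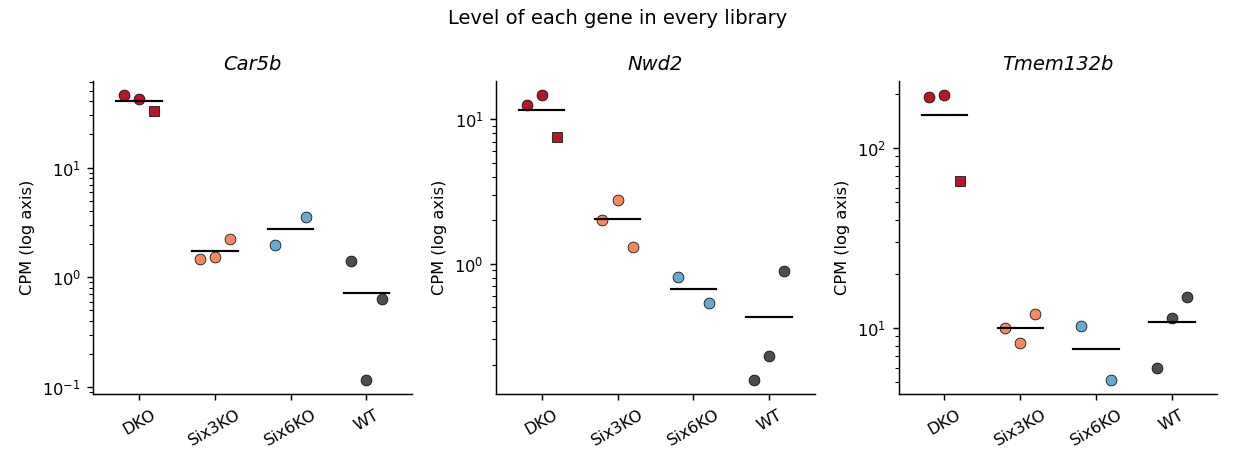
CPM of Car5b, Nwd2 and Tmem132b (vertical axes, log scale) in each library (points) of DKO, Six3KO, Six6KO and WT, with the group mean (black bar); the square is DKO library rh021. DKO libraries lie at 32.9 to 45.5 CPM for Car5b, 7.53 to 14.7 CPM for Nwd2 and 65.8 to 197 CPM for Tmem132b, above all other libraries, and rh021 is the lowest DKO point in each panel.

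All 3 genes had every DKO library above all 8 other libraries, which held for 4.21% of the genes tested. In Six3KO, Car5b and Nwd2 had every library above every WT library (3.1% of genes tested), and in Six6KO, Car5b did (7.2%). All 3 also had every DKO library above every WT library (9.03%), every Six3KO library (13.4%) and every Six6KO library (16.8%). The genes were chosen on these contrasts, so nothing is read from their number. Across the table, 0.655% of genes were called higher in DKO than in WT, 0.00752% in Six3KO (1 gene, Esr1) and 0% in Six6KO, by edgeR's quasi-likelihood test with an adjusted p under 0.05. In Six6KO against WT, 518 genes had an unadjusted p under 0.05 and DESeq2 called 2. Between mutants, 0.331% were called higher and 0.256% lower in DKO than in Six3KO, and 0.166% higher and 0.0677% lower in DKO than in Six6KO. These totals depended on single libraries. The 172 genes called in DKO against WT numbered 20 without DKO library rh010, 25 without DKO library rh011, and 45, 59 and 61 without WT libraries rh016, rh023 and rh024. The 78 against Six3KO became 16 without rh010, 21 without rh011 and 38 without Six3KO library rh026, and the 31 against Six6KO became 77 without DKO library rh021 and 1 to 3 without rh010, rh011 or either Six6KO library. By size of estimate, Car5b stood at place 3, Nwd2 at place 8 and Tmem132b at place 23 of 13292 genes in DKO against WT.

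For Car5b and Nwd2 the single gains together came to a small part of the double mutant gain, and Tmem132b had no single gain in its means. For Car5b the mean exceeded that of WT by 39.3 CPM in DKO, 1.02 CPM in Six3KO and 2.03 CPM in Six6KO, so that the single gains summed to 7.76% of the DKO gain. For Nwd2 the gains were 11.2 CPM in DKO, 1.61 CPM in Six3KO and 0.247 CPM in Six6KO, a sum of 16.6%. For Tmem132b the difference from WT was 141 CPM in DKO, -0.746 CPM in Six3KO and -3.12 CPM in Six6KO. On the log2 scale, DKO exceeded the sum of the single effects by 2.70 ± 0.77 for Car5b, 1.77 ± 0.90 for Nwd2 and 4.40 ± 0.74 for Tmem132b. Without WT library rh016 the Car5b excess was 1.66, without both Six3KO library rh026 and Six6KO library rh020 it was 3.43, and without rh024 that of Nwd2 was 0.73. Against the group with Cre and intact Six6, DKO over Six3KO was 4.53 ± 0.50 for Car5b, 2.50 ± 0.52 for Nwd2 and 3.92 ± 0.50 for Tmem132b. DKO over Six6KO was 3.85 ± 0.58 for Car5b, 4.09 ± 0.69 for Nwd2 and 4.31 ± 0.61 for Tmem132b. These comparisons share libraries, so their values are not independent of each other.

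**Figure D2:**
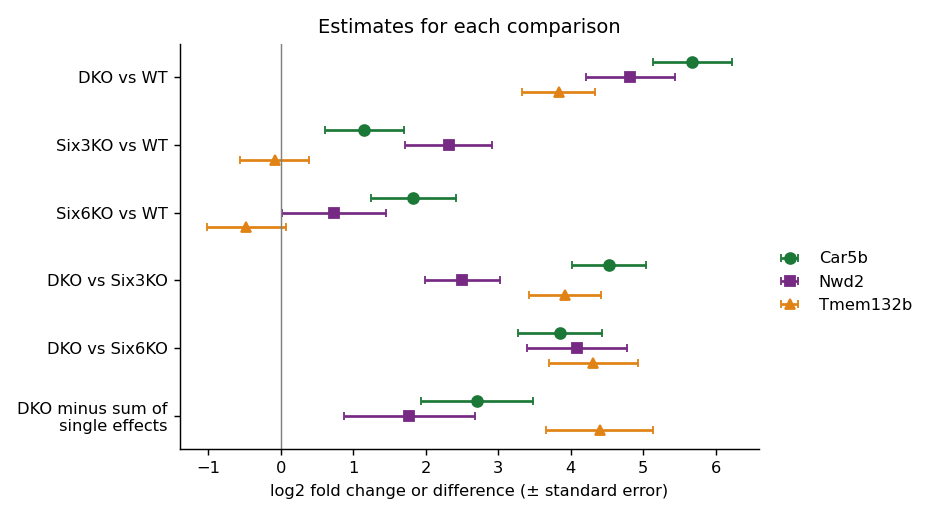
Log2 fold change, or for the lowest line the excess of DKO over the sum of the single effects (horizontal axis; bars, 1 standard error), of Car5b, Nwd2 and Tmem132b in each comparison (vertical axis). DKO against WT runs from 3.83 to 5.68, while the single mutants run from -0.48 (Tmem132b in Six6KO) to 2.32 (Nwd2 in Six3KO).

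DKO library rh021 was the lowest of its group for all 3 genes, to differing extents. It held 75.5% of the mean of rh010 and rh011 for Car5b, 55.4% for Nwd2 and 33.7% for Tmem132b. The same library held the most reads of Six3 (98.2 CPM, against 57.3 and 56.2) and of the null Six6 (99.8 CPM, against 56.0 and 52.8) in DKO. Its cell make-up differed too. It had the most progenitor marker signal (5419 CPM, against 4020 and 3867) and ganglion cell marker signal (1525 CPM, against 1033 and 1222) of DKO. Pigment epithelium signal was the least (101 CPM, against 313 and 343). The part of these differences in the low place of rh021 was not tested. The 65.8 CPM of Tmem132b in rh021 lay above the 14.9 CPM of the highest WT library.

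Per kilobase of exon the genes also differed in how far up they went. In DKO, Tmem132b averaged 18.5 CPM per kilobase, at or above 78.7% of tested genes with an annotated length, against 1.31 CPM per kilobase (11.7%) in WT. Car5b averaged 6.30 CPM per kilobase (45.0%) in DKO and 0.113 (0.530%) in WT. Nwd2 stayed low, at 1.11 CPM per kilobase (12.3%) in DKO and 0.0409 (0.207%) in WT. The largest fold change of the 3, that of Car5b, thus went with a mid-range level, and the smallest with the highest level.

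The other carbonic anhydrases tested had estimates between -1.04 and -0.04 in DKO against WT. Car5b was picked for a large gain, so nothing is read from its larger estimate. Of 15 listed, 7 were tested and none was called in either direction in DKO against WT by edgeR, with 0 at an unadjusted p under 0.05 and 0 by DESeq2. Over all genes, 0.655% were called higher and 0.639% lower by edgeR, 13% had an unadjusted p under 0.05 and DESeq2 called 5.82%, so 0 calls among 7 genes is near the share over all genes. Their median log2 fold change was -0.17, against -0.0036 over all genes, and all 7 estimates were below 0. The membrane-bound enzymes Car12 and Car14 stood at -1.04 ± 0.88 and -0.17 ± 0.30, Car15 at -0.22 ± 0.34 and the carbonic anhydrase-related gene Car11 at -0.53 ± 0.60. Without WT library rh016 the values of Car12 and Car14 were 0.84 and 0.017, and without rh024 that of Car15 was 0.23. Per kilobase of exon, Car5b came next after Car14 in DKO (6.30 CPM per kilobase, against 18.45 for Car14), and it was the lowest of the 8 in Six3KO, Six6KO and WT.

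Enzymes that use bicarbonate and the carriers that move it had estimates between -1.56 and 0.49. Among 6 tested genes of bicarbonate-using enzymes, of 9 listed, none was called by edgeR or by DESeq2, and 1 had an unadjusted p under 0.05. That was Pcca, a subunit of the mitochondrial propionyl-CoA carboxylase, which averaged 53.2 ± 2.18 CPM in DKO, against 37.9 ± 1.51 CPM in WT (SD, n = 3 each; log2 0.49 ± 0.15, edgeR adjusted p = 0.164). Pccb, its partner subunit, stood at 0.18 ± 0.14, Mccc1 at 0.15 ± 0.12 and the cytosolic Acaca at -0.07 ± 0.15 (0.018 without WT library rh023). Of 7 Slc4 bicarbonate transporters tested (10 listed), none was called by edgeR or DESeq2, and 2 had an unadjusted p under 0.05. They were the sodium bicarbonate cotransporter Slc4a4 (-0.81 ± 0.29, edgeR adjusted p = 0.257) and Slc4a1, the anion exchanger of red blood cells (-1.56 ± 0.60, adjusted p = 0.291). Slc4a2 (-0.59 ± 0.36) and Slc4a7 (0.16 ± 0.20) were nearer to 0. With lists this short, nothing is read from these counts beside the shares over all genes.

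The TMEM132 relatives of Tmem132b had estimates between -2.08 and -0.16 in DKO against WT. Tmem132b was picked for a large gain, so nothing is read from its opposite sign. All 4 relatives were tested, all 4 estimates were below 0 (median -1.71), and none was called by edgeR. At an unadjusted p under 0.05 there were 3, and DESeq2 called 2, against 13% and 5.82% of all genes. With 4 genes, nothing is read from these counts. Tmem132e held 15.7, 18.0 and 30.9 CPM in DKO libraries rh010, rh011 and rh021, against 66.97, 112 and 94.3 CPM in WT libraries rh016, rh023 and rh024. These groups did not overlap, as for 8.46% of all genes in this direction. In DKO, Tmem132e was highest in rh021, the library with the least Tmem132b and the most ganglion cell marker signal. The log2 fold change was -2.08 ± 0.48 (edgeR adjusted p = 0.0813; DESeq2 adjusted p = 0.000244), and it was called with the 2 groups alone (edgeR adjusted p = 0.0351). The single mutant libraries ranged from 25.6 to 68.0 CPM in Six3KO and were at 105 and 39.7 CPM in Six6KO, so Six3KO library rh026 lay within the DKO range. The 10 ganglion cell markers summed to 1033 to 1525 CPM in DKO, 837 to 2318 CPM in Six3KO, 964 to 1760 CPM in Six6KO and 1293 to 2548 CPM in WT. Six3KO library rh026 and Six6KO library rh020 were the lowest of their groups for these markers and for Tmem132e, whereas in WT the lowest libraries differed. The part of ganglion cells in the Tmem132e levels was not tested. Tmem132d held 4.43, 3.31 and 6.58 CPM in DKO and 11.49, 10.4 and 18.0 CPM in WT, again without overlap (-1.47 ± 0.32, edgeR adjusted p = 0.0606; DESeq2 adjusted p = 0.00215), and it was called without DKO library rh021 (edgeR adjusted p = 0.0403). Tmem132d was below every WT library in the single mutants as well, at 6.14, 6.91 and 9.58 CPM in Six3KO (log2 -0.82 ± 0.31) and 7.08 and 6.31 CPM in Six6KO (-0.99 ± 0.36), with no call by edgeR (adjusted p = 0.9999 and 0.991), and the highest DKO library overlapped both.

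The other TMEM132 genes were less clear. Tmem132c held 18.1, 25.0 and 8.88 CPM in DKO and 64.2, 14.0 and 123 CPM in WT (-1.95 ± 0.84, edgeR adjusted p = 0.371). Within WT it was lowest in rh023, the library with the least mesenchyme signal (357 CPM, against 1835 and 2066), and the part of that tissue in its difference was not tested. Tmem132a, the most abundant per kilobase in every group, stood at -0.16 ± 0.17 (0.016 without WT library rh024). Per kilobase of exon, Tmem132b came next after Tmem132a in DKO, at 18.5 against 26.3 CPM, and was the lowest of the 5 in WT at 1.31 CPM. Of the proteins that pair a nucleotide-binding domain with WD repeats, as Nwd2 does, the telomerase-associated Tep1 (0.13 ± 0.20) and the apoptosome component Apaf1 (-0.08 ± 0.11) were tested. Nwd1, the other of 3 listed, was not in the table. Neither Tep1 nor Apaf1 was called by edgeR or DESeq2, and 0 had an unadjusted p under 0.05. Over all genes, 0.655% were called higher and 0.639% lower by edgeR, 13% had an unadjusted p under 0.05 and DESeq2 called 5.82%. With 2 genes, nothing is read from these counts. Without WT library rh016 the Tep1 estimate was -0.025.

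**Figure D3:**
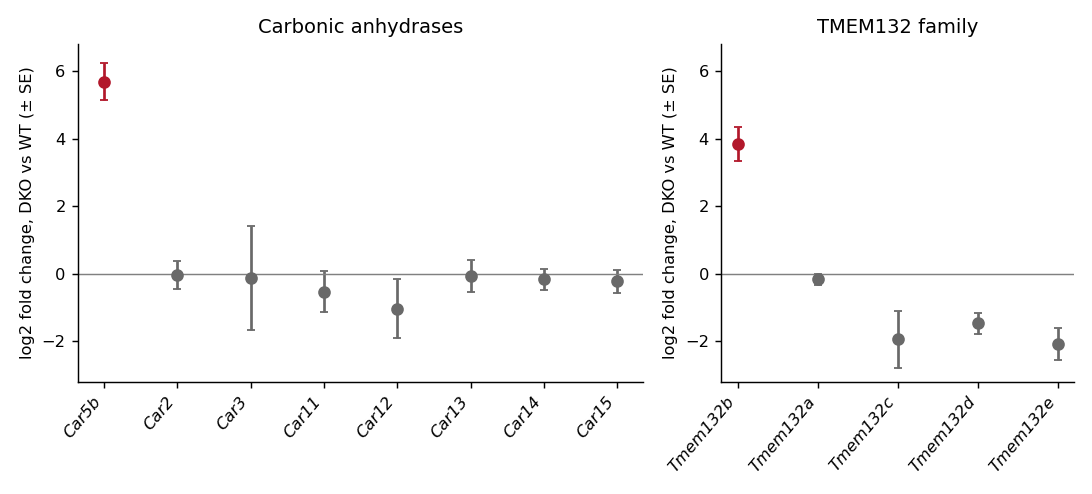
Log2 fold change in DKO against WT (vertical axes; bars, 1 standard error) of Car5b with 7 other carbonic anhydrases (left) and of Tmem132b with 4 other TMEM132 genes (right). Car5b stands at 5.68 and Tmem132b at 3.83 (red), while the other carbonic anhydrases lie between -1.04 and -0.04 and the other TMEM132 genes between -2.08 and -0.16.

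The neighbouring genes had estimates between -1.95 and 1.12 in DKO against WT. The members were picked for large gains, so nothing is read from their larger estimates. The 5 nearest genes of the table on each side of each member were all tested, and edgeR called 0 of 30 in DKO against WT. At an unadjusted p under 0.05 there were 2 around Car5b, 5 around Nwd2 and 4 around Tmem132b. DESeq2 called 0 of the 10 genes around Car5b, 3 around Nwd2 and 2 around Tmem132b. Over all genes these shares were 13% and 5.82%. Around Car5b, the splicing factor gene Zrsr2, 18.2 kb away, averaged 47.9 ± 1.06 CPM in DKO and 39.2 ± 1.497 CPM in WT (SD, n = 3 each; log2 0.29 ± 0.10, edgeR adjusted p = 0.221). Ap1s2, an adaptor complex subunit, stood at 0.53 ± 0.19, the ubiquitin ligase gene Siah1b, 42.7 kb away on the other side, at 0.16 ± 0.19, and Pir at -0.04 ± 0.45 (-0.35 to 0.53 with 1 library left out).

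The genes of the table nearest to Nwd2 on each side, Rell1 and Arap2, lie 98.4 and 883 kb away. Rell1 averaged 7.11 ± 0.734 CPM in DKO and 13.4 ± 3.64 CPM in WT (-0.91 ± 0.31, edgeR adjusted p = 0.221). Arap2 stood at -0.09 ± 0.64 (-0.43 to 0.28 with 1 library left out), Pgm2 at 0.35 ± 0.19 and G6pd2 at -0.05 ± 0.40 (-0.33 to 0.36 with 1 library left out). The DESeq2 calls here were Pcdh7, Gm3716 and Tbc1d1, named after their values were seen. Pcdh7, a protocadherin gene 5516 kb from Nwd2, averaged 211 ± 11.47 CPM in DKO and 117 ± 19.4 CPM in WT (0.85 ± 0.18, edgeR adjusted p = 0.0538). Beside Tmem132b, the acetoacetyl-CoA synthetase gene Aacs, 14.4 kb away, averaged 35.0 ± 6.27 CPM in DKO and 59.7 ± 11.4 CPM in WT (-0.77 ± 0.24, edgeR adjusted p = 0.182; DESeq2 adjusted p = 0.0457). Bri3bp stood at 0.20 ± 0.12 and Slc15a4 at 0.10 ± 0.10. Tmem132c and Tmem132d, described above, lie 1449 and 1989 kb from Tmem132b.

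**Figure D4:**
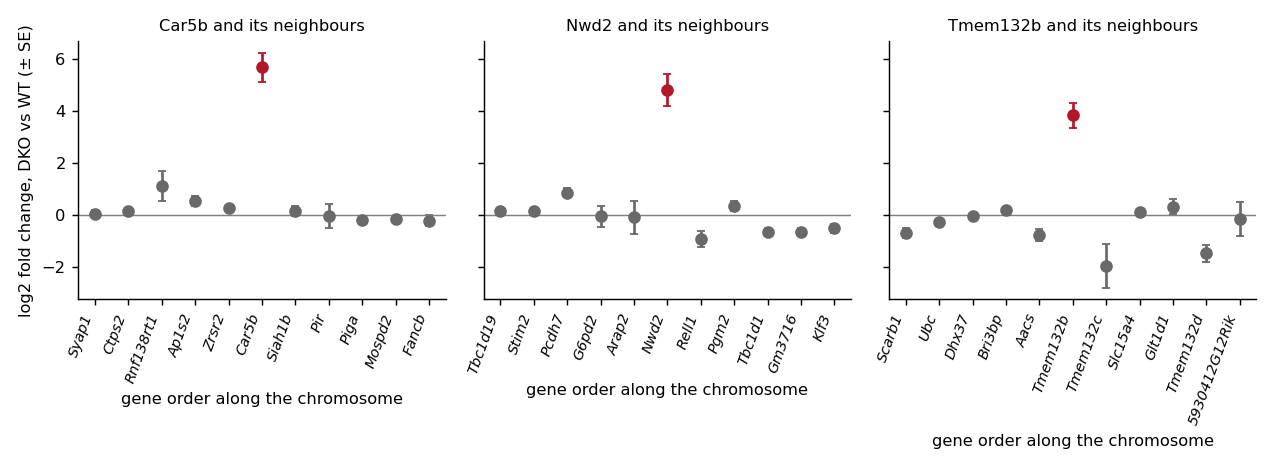
Log2 fold change in DKO against WT (vertical axes; bars, 1 standard error) of Car5b, Nwd2 and Tmem132b (red) and of the 5 nearest genes of the table on each side (grey), in chromosomal order and not to scale along the horizontal axis. The neighbours lie between -1.95 (Tmem132c) and 1.12 (Rnf138rt1), and the members between 3.83 and 5.68.

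The genes most like each member were searched for by the root mean square difference of their log2 CPM, set against the WT mean, over the 11 libraries and among 12237 genes. The measure covers both size and shape. Closest to Nwd2 was Filip1, which encodes a filamin A-interacting protein, with a difference of 0.71. Filip1 held 818, 794 and 535 CPM in DKO, 118, 121 and 95.8 CPM in Six3KO, 119.6 and 118 CPM in Six6KO and 38.7, 56.4 and 62.3 CPM in WT. It thus had Six3KO between DKO and WT, as for Nwd2, at far higher counts, but with both Six6KO libraries above WT. The AP-2 factor gene Tfap2c (1.03), the receptor tyrosine kinase gene Erbb4 (1.04), the zinc finger gene Zic4 (1.11) and Mmd2 (1.14) followed. Closest to Tmem132b was Rfx4, a winged-helix factor gene, with 0.76. Rfx4 held 20.1, 28.6 and 6.42 CPM in DKO libraries rh010, rh011 and rh021, with the same low place of rh021, and between 0.101 and 1.62 CPM elsewhere. The LIM-only gene Lmo3 (0.77), the calcium-binding protein gene Calb1 (0.82), the Wnt and agrin receptor gene Lrp4 (0.91) and Zic4 (0.92) came next. Car5b had no match as close. Tfap2c (1.15), the homeobox gene Dbx1 (1.16), Nwd2 itself (1.24), Filip1 (1.30) and Lmo3 (1.43) were its nearest.

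Among 12236 other genes, Nwd2 came at place 3 and Tmem132b at place 16 for Car5b, Car5b at place 9 and Tmem132b at place 11 for Nwd2, and Nwd2 at place 46 and Car5b at place 951 for Tmem132b. The difference was 1.24 between Car5b and Nwd2, 1.30 between Nwd2 and Tmem132b and 1.87 between Car5b and Tmem132b. The members were picked for large gains in DKO, which the measure takes in, so nothing is read from these places. Among the like genes, the log2 fold change in DKO was 3.77 ± 0.23 for Filip1, 2.91 ± 0.24 for Erbb4 and 3.88 ± 0.44 for Lmo3, given without a test because the search picked them for their profiles.

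**Figure D5:**
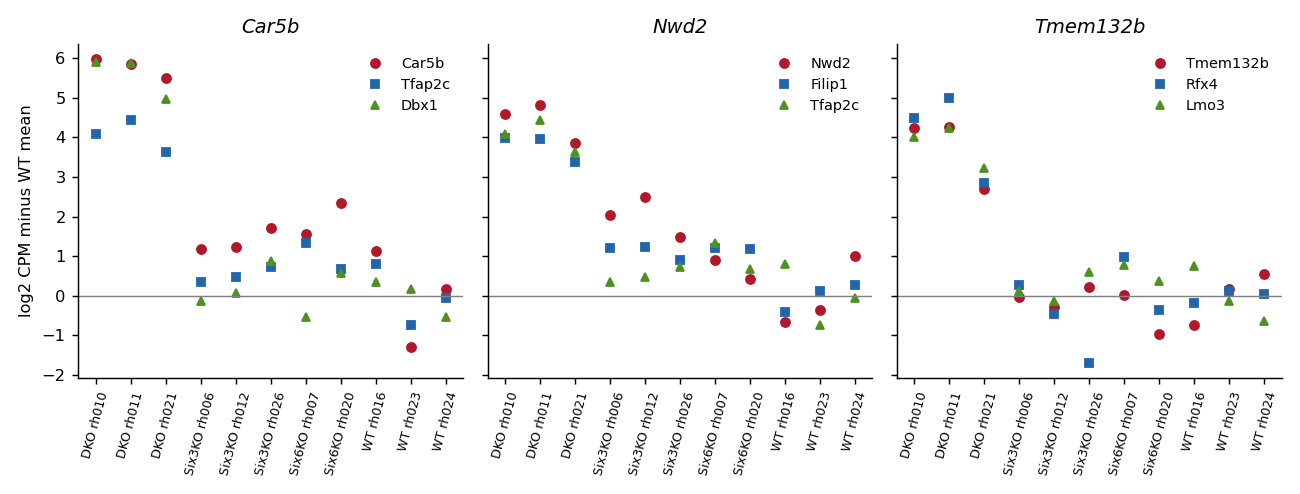
Log2 CPM minus the WT mean (vertical axis) in each of the 11 libraries (horizontal axis) for Car5b, Nwd2 and Tmem132b (red) and the 2 genes most like each (blue, green). Tmem132b, Rfx4 and Lmo3 are all lower in rh021 than in the other DKO libraries, and Nwd2 lies between 1.49 and 2.48 in Six3KO, where Tmem132b lies between -0.29 and 0.23.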

How the data were processed

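The deposited file is a table of raw counts, 1 column per library and 1 row per gene symbol, made by the authors. Per the submitters' processing notes, Trim Galore 0.3.7, TopHat2 2.0.13, HTSeq 0.6.1, Cufflinks 2.2.1 and Cuffdiff were used with mm10; annotation, strand setting and gene filter are not stated in the labels. Columns name a group and a library but no replicate number. The analysis used edgeR 4.0.16 in R 4.3.3: filterByExpr (minimum count 10), TMM, and a robust quasi-likelihood fit over the 11 libraries with a mean per group. Benjamini-Hochberg adjustment ran over 13292 genes, and calls were made under 0.05. A standard error is the estimate over the square root of F. Likeness used log2 CPM with prior count 2 and genes with a mean of 2 CPM or more. Predicted genes (Gm and Rik names), pseudogenes and mitochondrial genes were left out of it. Positions and exon lengths are from GENCODE vM21, in which 13211 symbols (97.9%) matched 1 gene, and promoter windows from RefSeq. On simulated DKO and WT counts, 90.0% of 4-fold and 98.3% of 8-fold changes were found (13254 to 13262 genes per run), with 3 to 11 false calls. The changes were set only in genes above a read cutoff, and each gene's spread followed the trend over abundance alone. Recovery in the real libraries can be lower. All replicate pairs differed beyond counting error, with a chi-square per degree of freedom of 9.73 to 77.4. The members and lists were chosen with earlier results of these data known. From each related list up to 4 tested genes are named, in order of p for DKO against WT; named neighbours are the 2 nearest per side, and like genes the 5 nearest per member. Counting intervals leave out the spread between embryos. Alternatives were relative log expression factors, no scaling, no filter, DESeq2 1.42.0, fits of the compared groups, and leaving out single libraries. A fit without Six3KO library rh026 and Six6KO library rh020, which stood apart in marker signal, was added after seeing the data.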

Additional observations from a re-analysis of the deposited data

How the results depend on the processing

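No paired analysis was possible because the columns carry no replicate number. Under DESeq2 the genes called numbered 773 in DKO against WT, 19 in Six3KO and 2 in Six6KO against WT, 774 in DKO against Six3KO, 671 in DKO against Six6KO and 241 for the departure from the sum, against 172, 1, 0, 78, 31 and 0 in edgeR; it called 2 TMEM132 genes, and 3 neighbours of Nwd2 and 2 of Tmem132b. With compared groups alone, Six6KO against WT had 10 calls and DKO against Six6KO 682, with 1 TMEM132 gene and 2 neighbours of Nwd2. Without Six3KO library rh026 and Six6KO library rh020 (chosen after seeing the data), calls were 283 in DKO against WT, 37 against Six3KO and 4 against Six6KO, with 1 TMEM132 gene and 2 neighbours of Nwd2, and the Car5b excess over the sum was 3.43. The cause of these moves was not tested.

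With 1 library left out, calls ranged from 20 to 205 in DKO against WT, 16 to 91 against Six3KO, 1 to 77 against Six6KO, 0 to 3 for the departure, 0 to 1 in Six6KO against WT, and 0 to 1 for TMEM132 genes and for neighbours of Tmem132b. Car5b ranged from 5.21 to 6.73 in DKO, 0.70 to 2.196 in Six3KO, 1.32 to 2.87 in Six6KO and 1.66 to 3.19 for its excess. Nwd2 ranged from 4.36 to 5.85 in DKO, 1.86 to 3.37 in Six3KO, 0.27 to 1.76 in Six6KO and 0.73 to 2.23 for its excess. Estimates that changed sign ranged from -1.51 to 0.84 (Car12), -0.47 to 0.23 (Car15), -0.37 to 0.017 (Car14), -0.20 to 0.018 (Acaca), -0.29 to 0.016 (Tmem132a), -0.025 to 0.35 (Tep1), -0.35 to 0.53 (Pir), -0.43 to 0.28 (Arap2) and -0.33 to 0.36 (G6pd2). With prior count 0.5, each member kept 4 of the 5 genes most like it. With 1 to 18 Car5b reads and 2 to 7 Nwd2 reads per WT library, depth limits both baselines.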

Other observations

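The low place of DKO library rh021 was not limited to Car5b, Nwd2 and Tmem132b. Of the 87 genes called higher in DKO than in WT, 72 (82.8%) had their lowest DKO value in rh021, against 4978 of 12328 genes (40.4%) with at least 2 CPM in DKO. The call itself used these libraries, so the shares are a description.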
